A study of Homo sapiens with 6 samples.

Results

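Integrins are the receptors with which cells hold on to the matrix around them, and this section describes 10 of their subunit genes in 6 RNA-seq libraries: the alpha chains ITGA2, ITGA3, ITGA5, ITGA6 and ITGAV and the beta chains ITGB1, ITGB3, ITGB4, ITGB5 and ITGB8. They are 10 of the 26 subunit genes looked up among the 58051 genes of the table. The genes were chosen by name with their values in this comparison already known, above all the higher level of ITGA5 with the mimic. Differences between mimic and scramble in these 10 genes are therefore given as a description, with no p-value, and calls among them are no independent evidence.

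The libraries came from cells labelled NTera-2 (NT2), an embryonal carcinoma line. In 3 of them the cells had received mimics of the piRNA piR-36249, and in 3 a scramble control, according to the sample titles; the genotype field calls the mimic samples a knockdown of this piRNA instead. The study's title names DHX36 and OAS2 as the genes of interest. The labels do not say that libraries of a group came from separately grown cells. The spread behind every p-value is that between these libraries alone, and it may be technical.

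An integrin is a pair of 1 alpha and 1 beta chain, both spanning the membrane. The alpha chain largely sets which ligand is bound, and the tails of most beta chains bind talin and kindlin, which link the receptor to actin. The chains pair in the endoplasmic reticulum, and an alpha chain without a partner is not brought to the surface. ITGB1 is the common partner and pairs with all 5 alpha chains listed here. ITGA5 is known to pair only with ITGB1, giving the main fibronectin receptor. ITGB4 pairs only with ITGA6, giving the laminin receptor of hemidesmosomes, and ITGB3, ITGB5 and ITGB8 pair with ITGAV, giving receptors for vitronectin and latent TGF-beta.

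The depth recovered from the values was 48.0 to 58.6 M reads in the mimic libraries and 52.8 to 62.7 M reads in scramble libraries. The correlation of log2 values across genes was 0.995 to 0.996 between libraries of a group and 0.985 to 0.988 between groups. The markers of the labelled cell type were largely missing. Of 10 embryonal carcinoma genes, 8 stayed under 0.5 FPKM (fragment counts scaled to gene length and library depth) in all 6 libraries. NANOG, SOX2, TDGF1, L1TD1 and SALL4 were listed at 0. TERF1 and DNMT3B were above 1 FPKM in all libraries. The list summed to 6.99 to 7.19 FPKM in mimic and 4.998 to 5.52 FPKM in scramble libraries. Most of that was DNMT3B, which averaged 5.15 FPKM with mimic and 3.13 FPKM with scramble. DNMT3B was called higher, and TERF1 was not called. Of 11 endothelial genes 7 were above 1 FPKM in all libraries, among them CDH5 and TIE1, while KDR, EMCN and CLDN5 stayed under 0.5. This endothelial list moved with the groups: 6 of its 7 tested genes were called higher with mimic and none lower. Over all 12912 tested genes 18.7% were called higher and 16.8% lower. The summed level of the endothelial list was 419 to 439 FPKM in mimic libraries and 356 to 364 FPKM in scramble libraries. The fibroblast list summed to 6.77 to 7.31 FPKM in mimic and 4.78 to 5.11 FPKM in scramble libraries. Most of that was THY1, its only tested gene, which was called higher, and 7 of its 9 genes stayed under 0.5 FPKM in all libraries. The epithelial list summed to 303 to 319 FPKM in mimic and 294 to 324 FPKM in scramble libraries, nearly all of it KRT8, which was called higher, and KRT18, which was not called and averaged 156 FPKM with mimic and 170.2 FPKM with scramble. The other 7 of its 9 genes stayed under 0.5 FPKM, with CDH1, KRT5 and ESRP1 at 0. The platelet and leukocyte list reached at most 0.417 FPKM in mimic and 0.341 FPKM in scramble libraries. Integrins are carried by most adherent cells, and the part of these markers in the integrin values was not tested. In such bulk RNA, a change in the number of cells of a type and a change in RNA per cell cannot be told apart.

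ITGA5, the fibronectin receptor alpha chain, stood far above every other subunit and was 2.77 times as high with mimic. The gene (ENSG00000161638) lies on the minus strand of chromosome 12 from 54395261 to 54419460 (GRCh38). It measured 504, 532 and 529 FPKM in the mimic libraries, against 188, 194 and 184 FPKM in the scramble libraries. The lowest mimic library was thus far above the highest scramble library, and within each group the libraries differed little (coefficient of variation 2.92% with mimic and 2.62% with scramble). The difference on the log2(FPKM + 1) scale, mimic minus scramble, was 1.46 (SE 0.042). By level ITGA5 was number 46 among all genes with mimic and number 168 with scramble. The counts behind it were large, 192305 to 223996 recovered reads in mimic libraries and 74649 to 89373 in scramble libraries.

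ITGB1, the only partner of ITGA5, measured 62.8, 63.4 and 59.0 FPKM in the mimic libraries, against 55.0, 57.0 and 50.4 FPKM in the scramble libraries. It lies on the minus strand of chromosome 10 from 32900319 to 33005792 (ENSG00000150093). The groups did not overlap, but the highest scramble library came close to the lowest mimic library. The difference was 0.19 (SE 0.054) on the log2(FPKM + 1) scale, a ratio of 1.14. ITGB1 kept the call of the whole-table test in all but 5 of the 16 alternatives, losing it when genes of any low value were included, and when mimic replicate 1, mimic replicate 2, scramble replicate 1 or scramble replicate 3 was left out, where the difference was 0.14 to 0.20.

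**Figure D1:**
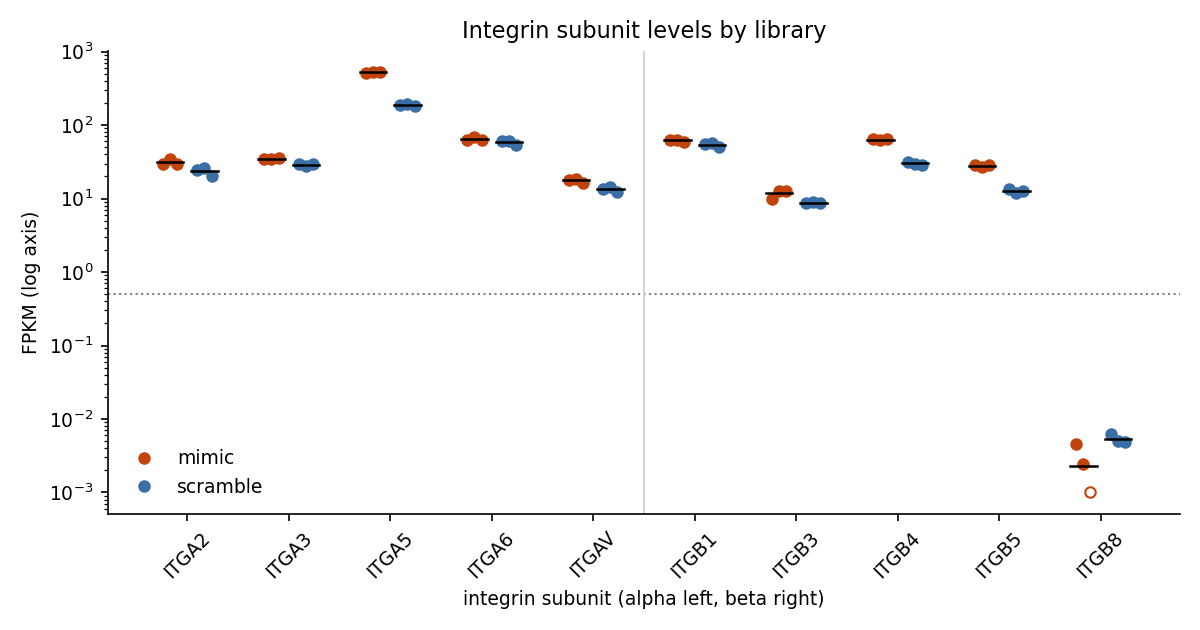
FPKM on a log axis of each of the 10 integrin subunits, with 1 point per library (mimic left, scramble right of each name), a bar at the group mean and a dotted line at 0.5 FPKM, the filter on low values; the open point marks a value of 0, drawn at the foot of the axis. ITGA5 lies above all others in both groups, and ITGB8 lies far under the filter.

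The start regions of the chains of the fibronectin receptor are shown because it is the only known receptor of ITGA5, the highest subunit. Both are RefSeq sequences on GRCh38.p14, minus strand, 250 bases before to 30 after a RefSeq start, at chr12:54419237-54419516 for ITGA5 and chr10:32958201-32958480 for ITGB1. Capitals mark matches, on either strand, to AP-1 (TGANTCA), to the GC box (GGGCGG) and to TEAD (GGAATG); no marked matches overlap.
ITGA5: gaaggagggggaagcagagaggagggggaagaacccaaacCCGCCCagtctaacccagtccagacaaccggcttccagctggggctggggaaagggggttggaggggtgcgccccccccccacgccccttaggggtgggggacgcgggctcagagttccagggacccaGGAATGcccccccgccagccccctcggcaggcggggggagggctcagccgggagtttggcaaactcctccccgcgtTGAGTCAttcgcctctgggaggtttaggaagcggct
ITGB1: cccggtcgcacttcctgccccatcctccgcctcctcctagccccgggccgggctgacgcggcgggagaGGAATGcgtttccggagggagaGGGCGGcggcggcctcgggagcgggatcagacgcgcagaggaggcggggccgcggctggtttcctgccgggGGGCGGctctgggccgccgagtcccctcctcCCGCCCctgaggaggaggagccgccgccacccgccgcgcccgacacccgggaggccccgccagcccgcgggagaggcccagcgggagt
ITGA5 held 1 AP-1 match, which begins 6 bases before the start, 1 GC box and 1 TEAD match. The printed start region of ITGB1 held no AP-1 match, 3 GC boxes and 1 TEAD match. Another RefSeq start region of ITGB1, at chr10:32935529-32935808 and not printed, held no match of any kind. Of the 35116 RefSeq windows of this length 7.35% held the AP-1 letters, 44.1% the GC box and 13.3% the TEAD letters, so the GC box is common. Windows were found for ITGA2, ITGA5, ITGA6, ITGAV, ITGB1, ITGB5 and ITGB8, 12 windows in all, since some genes have several starts. ITGA5 was the only one of these 7 with the AP-1 letters, and GC boxes were found in 6 of the 7. These are counts of genes, while the shares above are per window. A gene with several windows had several chances of a match. The motifs were picked after the ITGA5 sequence had been seen, and a match is a run of letters, not a bound site.

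ITGB4 and ITGB5 were the other subunits at more than 2 times their scramble level. ITGB4, the beta chain of hemidesmosomes, whose very long tail binds plectin, lies on chromosome 17 from 75721328 to 75757818, plus strand (ENSG00000132470). It measured 63.9, 62.3 and 64.9 FPKM in mimic libraries, against 31.7, 29.7 and 28.8 FPKM in scramble libraries, a ratio of 2.12. All mimic libraries lay above all scramble libraries, with a log2 difference of 1.06 (SE 0.045). ITGB5, a vitronectin receptor chain that also sits at clathrin-coated adhesions, lies on the minus strand of chromosome 3 from 124761948 to 124901418 (ENSG00000082781). It measured 29.05, 27.3 and 28.2 FPKM in mimic libraries, against 13.6, 11.8 and 12.5 FPKM in scramble libraries, a ratio of 2.23 and a log2 difference of 1.10 (SE 0.055). Here too the groups were well apart.

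The remaining alpha chains stood higher with mimic by smaller amounts. ITGAV (ENSG00000138448, chromosome 2), the common partner of the vitronectin receptors, measured 18.2, 18.7 and 16.5 FPKM in mimic libraries, against 13.5, 14.3 and 12.3 FPKM in scramble libraries. ITGA2 (ENSG00000164171, chromosome 5), a collagen receptor chain, measured 29.6, 34.5 and 29.95 FPKM in mimic libraries, against 24.4, 25.8 and 20.6 FPKM in scramble libraries. These chains had similar log2 differences, 0.39 (SE 0.066) for ITGAV and 0.40 (SE 0.090) for ITGA2, and neither showed any overlap between the groups. ITGA3 (ENSG00000005884, chromosome 17), a laminin receptor chain that binds the tetraspanin CD151, measured 34.1, 34.7 and 36.1 FPKM in mimic libraries, against 29.7, 27.8 and 29.5 FPKM in scramble libraries, a log2 difference of 0.26 (SE 0.042). ITGA6 (ENSG00000091409, chromosome 2), the other laminin receptor chain, measured 62.8, 68.7 and 62.5 FPKM in mimic libraries, against 59.97, 60.7 and 53.5 FPKM in scramble libraries. It had the smallest difference of the tested members, 0.15 (SE 0.061), and was the only one of them not called. The difference was 0.10 without scramble replicate 3, and ITGA6 was called with the replicate number as a block or with a weighted fit of recovered reads.

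ITGB3 (ENSG00000259207, chromosome 17), the beta chain of the classical vitronectin receptor, was the lowest of the subunits that passed the filter. It measured 10.02, 12.8 and 12.7 FPKM in mimic libraries, against 8.74, 9.06 and 8.58 FPKM in scramble libraries. The groups did not overlap, yet mimic replicate 1 lay nearer to the scramble libraries than to the other mimic libraries. The log2 difference was 0.38 (SE 0.086). Of the exon bases of ITGB3, 51.6% also belong to an overlapping gene on the same strand, ENSG00000259753, which was listed at 0 in all libraries. How reads on shared bases were counted is not given in the sources used here, so the level of ITGB3 is uncertain. No other member shared more than 2.66% of its exon bases with any 1 overlapping gene, and most of those genes lie on the opposite strand. ITGB8, the beta chain that with ITGAV activates latent TGF-beta, was at the limit of detection, with 4, 2 and 0 recovered reads in mimic libraries, against 6, 4 and 4 in scramble libraries. It did not pass the filter, and no ratio is given for it.

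Of the 10 subunits 9 passed the filter of a mean of 0.5 FPKM. In the limma test across all genes 8 of these 9 were called higher with mimic, where 18.7% of all 12912 tested genes were called higher and 16.8% lower. The groups did not overlap, with mimic on top, in 9 of 9, against 26.0% of all tested genes. A difference of at least 1 on the log2(FPKM + 1) scale was reached by ITGA5, ITGB4 and ITGB5, and by 0.217% of tested genes. The median difference was 0.39 over the 9 subunits and 0.0025 over all tested genes. The authors' deposited table covers the same comparison and holds only 401 genes. Their absolute log2 fold changes are 1.0 or more, and their DESeq2 adjusted p is 0.0499 or less. At that cut it holds the same 3 subunits. ITGA5 had a log2 fold change of 1.46 (SE 0.049), ITGB5 of 1.15 (SE 0.065) and ITGB4 of 1.08 (SE 0.056). A subunit missing from it may only have fallen short of the cut. It lists 0.377% of all 58051 genes as higher, a base that includes 27635 genes at 0 in all libraries. Since this contrast took part in the choice of the genes, these counts only describe them.

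**Figure D2:**
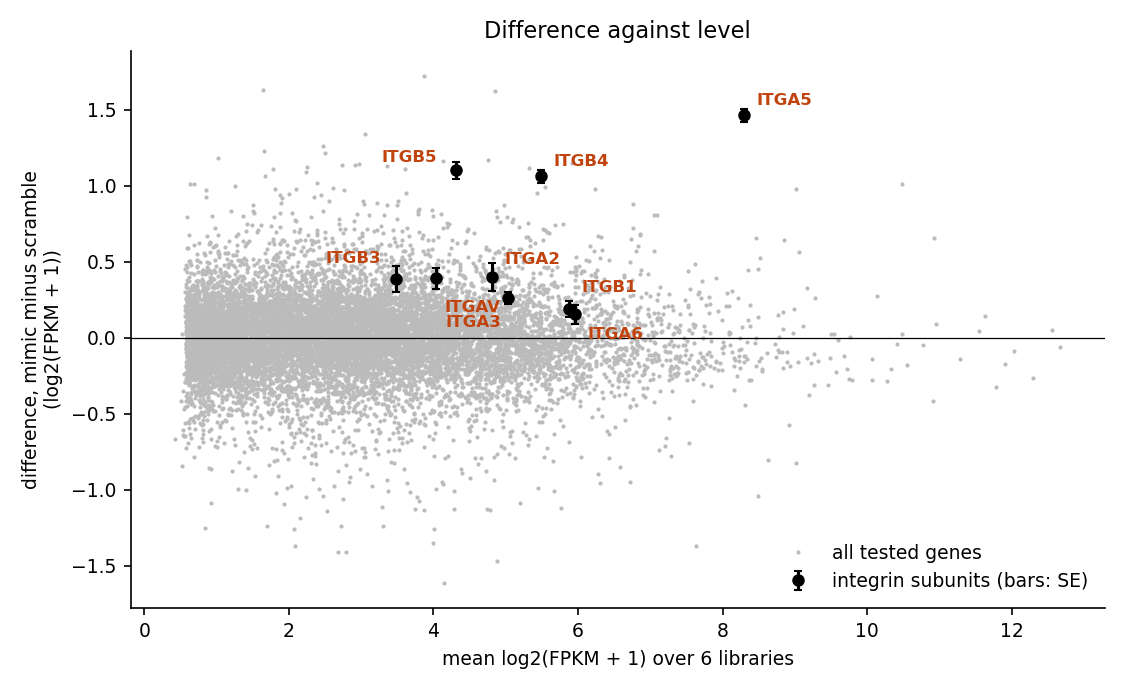
Difference between mimic and scramble against the mean level of each tested gene, both on the log2(FPKM + 1) scale, with all tested genes in grey and the 9 tested integrin subunits in black with their standard errors. ITGA5 (1.46), ITGB5 (1.10) and ITGB4 (1.06) lie at the upper edge of the cloud and the other 6 lie between 0.15 and 0.40.

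FPKM is scaled to gene length, so levels can be ordered between genes, but the order depends on the length taken. With FPKM as deposited the order with mimic was ITGA5, ITGA6, ITGB4, ITGB1, ITGA3, ITGA2, ITGB5, ITGAV, ITGB3 and ITGB8. With scramble it was ITGA5, ITGA6, ITGB1, ITGB4, ITGA3, ITGA2, ITGAV, ITGB5, ITGB3 and ITGB8. The neighbours ITGA6 and ITGB4, ITGB4 and ITGB1, and ITGA3 and ITGA2 had overlapping library values with mimic. With scramble the overlapping neighbours were ITGA6 and ITGB1, ITGB4 and ITGA3, and ITGAV and ITGB5. Per length of the longest transcript, an alternative chosen after seeing the data, ITGB1 came second in both groups, at 98.1 FPKM with mimic and 85.96 FPKM with scramble, above ITGA6 without overlap. On that scale ITGB4 lay next to ITGA6 with overlap in mimic libraries (72.8 and 75.2 FPKM), and below ITGA3 without overlap in scramble libraries (34.3 and 51.9 FPKM). With either length ITGA5 stayed highest and ITGB3 and ITGB8 lowest in both groups.

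Read as pairs, the chains of a receptor often differed in how they stood between groups. The size of a ratio between genes also depends on the length taken, which scales a ratio of 2 genes alike in both groups. ITGA5 was at 8.46 ± 0.475 times the FPKM of ITGB1 in mimic libraries and at 3.49 ± 0.142 times in scramble libraries (mean ± SD, n = 3 each). The other 4 alpha chains together were at 2.41 ± 0.0927 times ITGB1 with mimic and 2.29 ± 0.0322 times with scramble, and these ranges overlapped. Among those 4, ITGA2 was at 0.508 ± 0.0365 of ITGB1 with mimic and 0.435 ± 0.0233 with scramble, and ITGAV at 0.288 ± 0.0077 with mimic and 0.247 ± 0.0034 with scramble, both without overlap. The ranges overlapped for ITGA3 and for ITGA6, which is the largest part of the sum. ITGB1 was at 0.0921 ± 0.0046 of the summed FPKM of the 5 alpha chains in mimic libraries and at 0.173 ± 0.0045 in scramble libraries.

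In the pairs of ITGA6 with ITGB4 and of ITGAV with ITGB5 it was the beta chain that stood out. ITGB4 was at 0.988 ± 0.0707 of ITGA6 with mimic and at 0.518 ± 0.0258 with scramble, without overlap. ITGB5 was at 1.59 ± 0.127 times ITGAV with mimic, against 0.949 ± 0.108 with scramble, also without overlap. ITGB3 was at 0.669 ± 0.110 of ITGAV with mimic and 0.660 ± 0.0337 with scramble, and these ranges overlapped. ITGB4 and ITGB5 thus stood higher relative to their alpha partner with mimic, and for ITGB3 no such shift was seen.

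**Figure D3:**
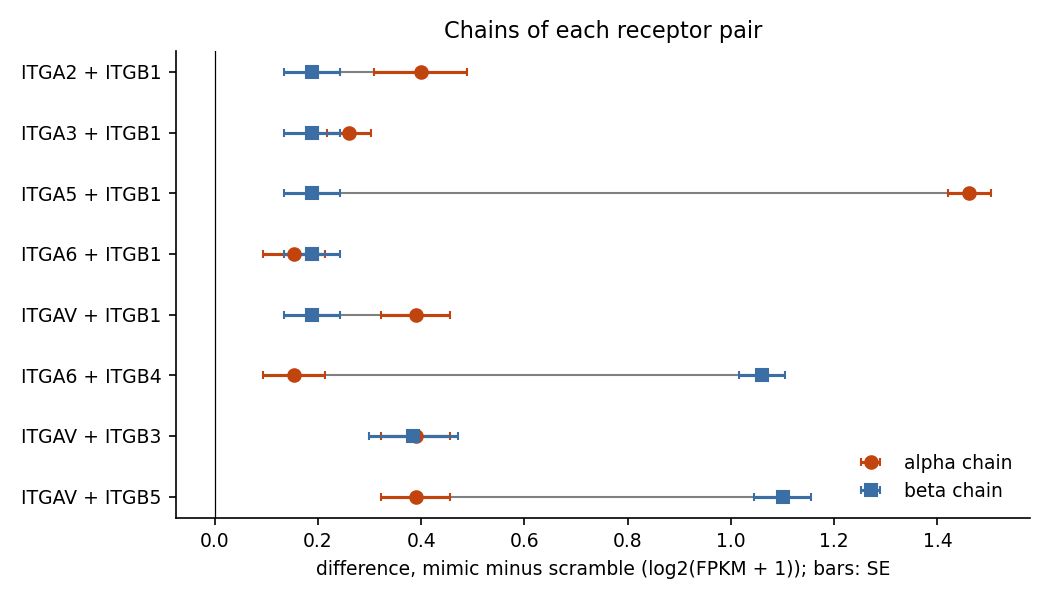
Difference between mimic and scramble on the log2(FPKM + 1) scale for the alpha chain (circles) and the beta chain (squares) of 8 known receptor pairs, with standard errors; ITGAV with ITGB8 is left out because ITGB8 was not tested. The chains lie farthest apart in ITGA5 with ITGB1 (1.46 and 0.19), ITGA6 with ITGB4 (0.15 and 1.06) and ITGAV with ITGB5 (0.39 and 1.10).

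The pool of subunit transcripts was larger and differently composed with mimic. The 5 alpha chains summed to 649, 688 and 674 FPKM in the mimic libraries, against 316, 323 and 300.0 FPKM in the scramble libraries. ITGA5 made up 77.8 ± 0.622% of this sum with mimic and 60.4 ± 0.925% with scramble. ITGA6 made up 9.64 ± 0.354% with mimic and 18.5 ± 0.637% with scramble, although its own level was not lower. The 5 beta chains summed to 165 ± 0.542 FPKM with mimic and 106 ± 4.68 FPKM with scramble. ITGB1 made up 37.3 ± 1.33% of them with mimic and 51.2 ± 1.52% with scramble, while ITGB4 made up 38.5 ± 0.898% with mimic and 28.5 ± 0.747% with scramble. Alpha chain FPKM was 4.05 ± 0.124 times beta chain FPKM with mimic and 2.96 ± 0.0578 times with scramble. These are transcript levels, and protein or surface receptor was not measured.

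**Figure D4:**
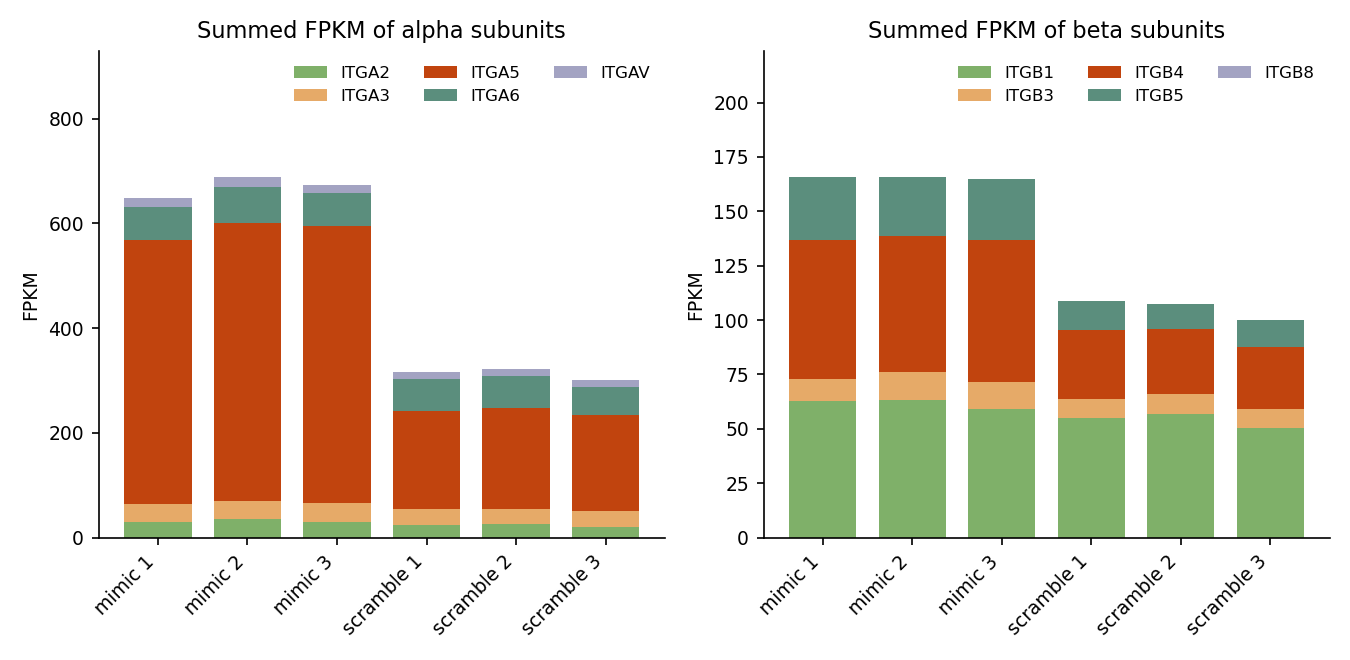
Summed FPKM of the 5 alpha chains (left panel) and the 5 beta chains (right panel) in each library, mimic libraries left and scramble libraries right, with the height of each colour giving the FPKM of 1 subunit. The alpha sum lies between 649 and 688 with mimic and between 300.0 and 323 with scramble, and most of the gap is ITGA5.

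Within groups the subunits also varied together in part. ITGA2, ITGA5, ITGA6, ITGAV, ITGB1 and ITGB3 had their highest value in mimic replicate 2 among mimic libraries and in scramble replicate 2 among scramble libraries. Scramble replicate 3 held the lowest scramble value of 7 of the 9 tested subunits, the exceptions being ITGA3 and ITGB5. These library differences were small beside those between groups for ITGA5, ITGB4 and ITGB5, and of similar size for ITGA6 and ITGB1.

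The genes whose profile over the 6 libraries lay nearest to that of ITGA5, by Euclidean distance between centred log2(FPKM + 1) values, were ADAM19 (0.237), OAS2 (0.294), COL5A1 (0.324), PI16 (0.332) and CEACAM1 (0.339). OAS2, an interferon-induced antiviral enzyme that the study's title names, averaged 49.9 ± 3.95 FPKM with mimic and 15.6 ± 1.89 FPKM with scramble. ADAM19, a membrane metalloprotease, averaged 12.3 ± 1.34 FPKM with mimic and 4.25 ± 0.112 FPKM with scramble. COL5A1, a chain of collagen V, averaged 7.60 ± 0.233 FPKM with mimic and 2.71 ± 0.126 FPKM with scramble. Among the subunits ITGB5 (0.488) and ITGB4 (0.509) came closest, as numbers 18 and 19 of all tested genes, and the others lay at 1.32 or more. By construction this distance depends on the size of the group difference as well as on its shape.

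The other 16 integrin subunit genes were mostly near 0, and only 3 of them were tested. Of these 1 was called higher and none lower, beside 18.7% higher and 16.8% lower over all tested genes. ITGA10, a collagen receptor alpha chain that pairs with ITGB1, was the only one of them called: it rose to 20.3 ± 0.882 FPKM with mimic, against 15.5 ± 0.414 FPKM with scramble (log2 0.36, SE 0.045, adjusted p = 0.00074). ITGAE (-0.19, adjusted p = 0.0739) and ITGAX (-0.01, adjusted p = 0.92) were tested and not called, the first being called lower without mimic replicate 1 and with the weighted fit of recovered reads. The other 13 had no library above 0.272 FPKM. Among them were ITGB2 and ITGB7, the known partners of ITGAX and ITGAE, and ITGA4, the VCAM1 receptor chain.

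Matrix and soluble ligands of integrins changed in both directions, more often upward. Of 34 listed genes 22 were tested, and 10 rose and 3 fell, beside 18.7% higher and 16.8% lower over all tested genes. COL5A1 rose (log2 1.21, SE 0.050, adjusted p = 1.04e-05), and COL4A1, a basement membrane collagen bound by ITGA2, rose to 21.9 ± 1.46 FPKM with mimic, against 12.0 ± 0.477 FPKM with scramble (log2 0.82, adjusted p = 5.32e-05). ANGPTL4, a secreted protein reported to bind ITGB1 and ITGB5, rose by 0.68 (adjusted p = 3.75e-05). CCN2, a matricellular protein, fell by 0.45 (adjusted p = 0.000262). FN1, the fibronectin gene and thus the ligand gene of ITGA5 with ITGB1, is named for that role: it measured 1.23 ± 0.0732 FPKM with mimic and 0.998 ± 0.0378 FPKM with scramble (log2 0.16, adjusted p = 0.0743) and was not called. VTN, for vitronectin, had at most 0.114 FPKM. The median difference of the tested ligands was 0.16, beside 0.0025 over all tested genes.

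Of the proteins that switch integrins on or off 21 were listed and 16 tested, and 3 rose and 2 fell (median 0.06), close to the shares of 18.7% higher and 16.8% lower over all tested genes. FERMT2, kindlin-2, which binds beta tails, rose to 9.03 ± 0.621 FPKM with mimic, against 6.82 ± 0.490 FPKM with scramble (log2 0.36, adjusted p = 0.00453). FERMT3, kindlin-3, known mainly from blood and endothelial cells, fell to 41.8 ± 0.838 FPKM with mimic, against 51.0 ± 2.30 FPKM with scramble (log2 -0.28, adjusted p = 0.00209). RAP1A, a GTPase that recruits talin, rose by 0.24 (adjusted p = 0.00871) and CIB1, a calcium-binding protein known for binding the ITGA2B tail, fell by 0.18 (adjusted p = 0.0117). With the weighted fit of recovered reads 5 genes of this list were lower.

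Among 33 tested adhesion kinases and adaptors of 37 listed, 11 rose and 2 fell (median 0.10). Of all tested genes 18.7% were called higher and 16.8% lower. KANK3, of a family that binds talin at the rim of adhesions, rose to 3.86 ± 0.528 FPKM with mimic, against 1.07 ± 0.187 FPKM with scramble (log2 1.23, SE 0.10, adjusted p = 0.000122), a difference of 1.84 with a pseudocount of 0.01. LIMS1, the ILK partner PINCH1, rose by 0.44 (adjusted p = 0.000372) and KANK2 by 0.40 (adjusted p = 0.000581). FHL2, a LIM domain adaptor of alpha and beta tails, fell by 0.37 (adjusted p = 0.000666). The higher count depended on single libraries, being 6 without mimic replicate 1, 5 without mimic replicate 3, 7 without scramble replicate 2 and 5 without scramble replicate 3. The lower count was 1 without mimic replicate 3, 4 without scramble replicate 3, 5 with the replicate block and 6 with the weighted fit; including all low genes left 5 higher and 1 lower.

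Among genes of integrin uptake and recycling 6 rose and 4 fell of 22 tested, 25 being listed (median 0.04). These counts lie near the shares of 18.7% higher and 16.8% lower over all tested genes. RAB11A, the GTPase of slow recycling, rose to 48.7 ± 2.39 FPKM with mimic, against 31.7 ± 0.599 FPKM with scramble (log2 0.60, SE 0.045, adjusted p = 7.43e-05). VPS35, of the retromer, rose by 0.25 (adjusted p = 0.00273). HAX1, which binds the ITGB6 tail in endocytosis, fell by 0.37 (adjusted p = 0.000281), and SNX17, which keeps ITGB1 from degradation, fell by 0.27 (adjusted p = 0.00189). The higher count was 3 without mimic replicate 2 and when all low genes were included.

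All 19 listed membrane partners of integrins were tested, and 7 rose and 3 fell (median 0.07). For comparison, 18.7% of all tested genes were called higher and 16.8% lower. ENG, endoglin, rose to 645 ± 25.7 FPKM with mimic, against 435 ± 24.9 FPKM with scramble (log2 0.57, adjusted p = 0.000279). The tetraspanins CD9 (0.45, adjusted p = 0.000181) and CD82 (0.38, adjusted p = 0.000559) rose, and PLAUR, the urokinase receptor, fell by 0.43 (adjusted p = 0.000189). The higher count was 4 without mimic replicate 3, without scramble replicate 1 and when all low genes were included.

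In the list of folding and maturation 6 of 13 tested genes rose and 2 fell, of 14 listed (median 0.09). The shares over all tested genes were 18.7% higher and 16.8% lower. FURIN, the protease that cleaves the precursors of ITGA3, ITGA5, ITGA6 and ITGAV, rose to 105 ± 2.50 FPKM with mimic, against 52.8 ± 2.69 FPKM with scramble (log2 0.98, SE 0.046, adjusted p = 1.56e-05). B4GALT1, a galactosyltransferase of glycan chains, fell to 6.27 ± 0.421 FPKM with mimic, against 13.6 ± 0.970 FPKM with scramble (log2 -1.01, SE 0.065, adjusted p = 4.32e-05). HSPA5, a chaperone of the endoplasmic reticulum, rose by 0.65 (adjusted p = 4.99e-05), and PDIA4, a disulfide isomerase there, fell by 0.21 (adjusted p = 0.00293).

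Of 9 listed hemidesmosome genes other than ITGB4, 7 were tested, and none rose and 2 fell (median 0.01). With so few genes these counts lie near the shares of 18.7% higher and 16.8% lower over all tested genes. CD151, the tetraspanin of laminin receptors, which is also on the list of membrane partners, fell to 87.4 ± 4.07 FPKM with mimic, against 113 ± 9.71 FPKM with scramble (log2 -0.37, SE 0.065, adjusted p = 0.0039). DST, dystonin, fell by 0.37 (SE 0.11, adjusted p = 0.0307), and this call needed most libraries: it did not hold once mimic replicate 1, mimic replicate 3, scramble replicate 1 or scramble replicate 2 was left out, nor when all low genes were included (highest adjusted p = 0.12). PLEC, plectin (0.15, adjusted p = 0.0916), and LAMB3, a laminin chain (0.14, adjusted p = 0.056), did not pass; PLEC was called with the replicate block, LAMB3 without mimic replicate 1 and at a filter of 5 FPKM, and both with the weighted fit. KRT5 was listed at 0.

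Around latent TGF-beta, which ITGAV receptors can activate, 8 of 13 tested genes rose and 1 fell, of 15 listed (median 0.21). Over all tested genes the shares were 18.7% higher and 16.8% lower. TGFBR2, a receptor of the pathway, fell to 55.5 ± 2.78 FPKM with mimic, against 109 ± 7.56 FPKM with scramble (log2 -0.96, SE 0.060, adjusted p = 3.78e-05). SMAD7, an inhibitor of its signal, rose by 0.57 (adjusted p = 0.000913) and LTBP3, which stores latent TGF-beta in the matrix, by 0.44 (adjusted p = 0.00048).

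**Figure D5:**
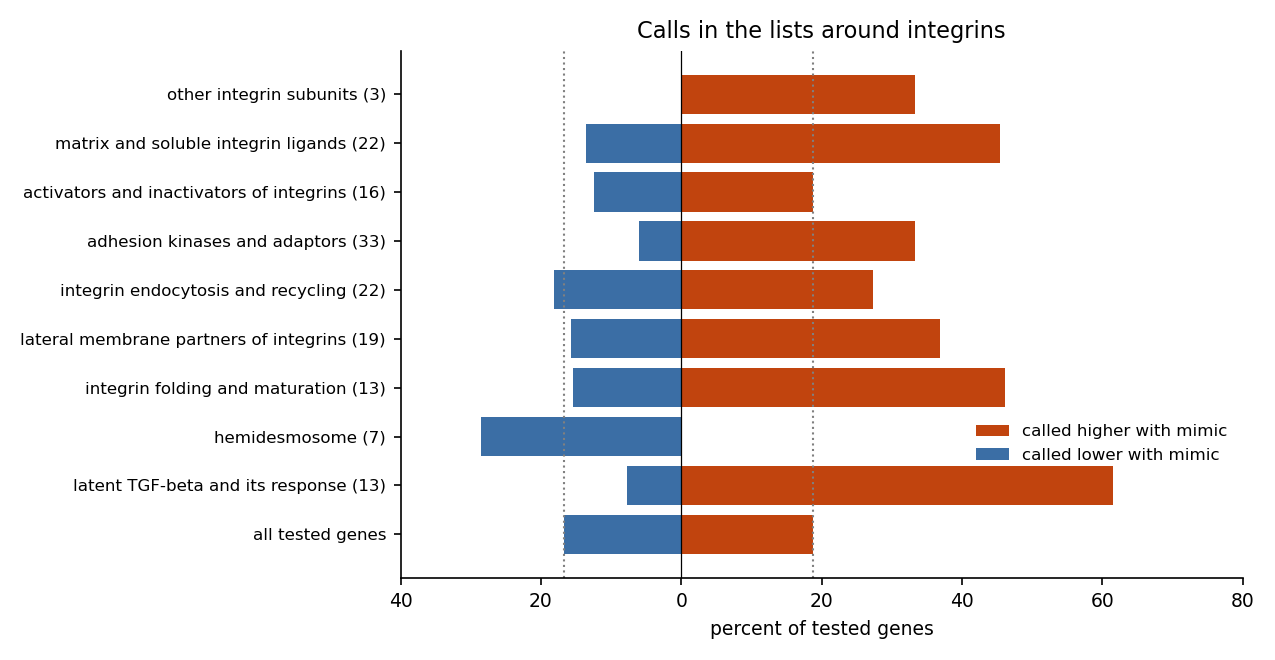
Percent of tested genes called higher (right of 0) and lower (left of 0) with mimic in 9 gene lists around integrins, with the number tested in brackets, and in all tested genes (lowest row and dotted lines, 18.7% higher and 16.8% lower). The lists had between 0 and 11 genes higher and between 0 and 4 lower.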

How the data were processed

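RNA-seq values were deposited for 6 libraries of cells labelled NTera-2, grouped by their titles into 3 mimic and 3 scramble libraries. The submitters' processing notes name GRCh38, featureCounts 2.0.1, HISAT2 2.1.0, Trimmomatic 0.39 and DESeq2 1.26.0. How FPKM was computed, which annotation was counted and whether strand was used is not given in the sources used here. A table deposited by the authors holds FPKM for 58051 genes. A second deposited table gives, per the file headers, for 401 genes the mean normalized count as a signal, a log2 fold change with its error, a test score and p-values.

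Identifiers were matched to GENCODE release 29 (57447 matched). FPKM times union exon length fell on whole multiples of 1 step per library for 96.2% to 96.5% of low values (tolerance 0.02 reads), which gave the depths and recovered reads. Genes averaging 0.5 FPKM or more over the libraries were kept, 12912 in all, and their log2(FPKM + 1) values were fitted in limma 3.58.1 under R 4.3.3, letting the variance follow the level. Benjamini-Hochberg adjustment ran over all of them, with calls at 0.05. Fold changes on this scale understate low genes. The model was also run on simulated data with independent noise for each gene. That run did not cover shifts shared by many genes of a library. The weighted fit of recovered reads was limma's voom with scaling by trimmed means. Values after ± are SD over 3 libraries.

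The 10 genes, the 9 gene lists and the tests were chosen with earlier results of these data known, and lists share genes. Named were all 10 genes, up to 4 genes per list with the smallest p, the 5 genes nearest to ITGA5, marker genes and genes overlapping a member; FN1 and VTN were added for their role, and ITGA4, ITGB2 and ITGB7 after their values were seen. 1 gene that this rule names is not reported here.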

Additional observations from a re-analysis of the deposited data

How the results depend on the processing

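The genes called higher and lower with mimic, 2417 and 2167, stayed within 1.5 times of these counts under all 16 alternatives. The subunits called fell to 5 when all genes above 0 were tested, where ITGA2 (0.40), ITGB1 (0.19) and ITGB3 (0.38) kept their difference and lost the call. ITGB1 ranged from 0.14 to 0.23 with single libraries left out. ITGA6 was called with the replicate block (0.15) and with voom on recovered reads (0.15); no other call of a subunit changed with the block. Same-numbered libraries correlated at -0.06, 0.24 and 0.05 in their deviations from the group means, and differently numbered ones at -0.27 to 0.23. With 3 libraries per group these values cannot decide whether the numbers pair the libraries, and the labels state no pairing. ITGA5 stayed between 1.45 and 1.49 throughout.

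Per length of the longest transcript, ITGA5 made up 80.6% of alpha FPKM with mimic and 64.3% with scramble, and ITGB1 was at 0.10 of its alpha partners with mimic and 0.193 with scramble. Adding ITGA10 to these partners, chosen after seeing the data, gave 0.0894 with mimic and 0.165 with scramble.

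List counts of a few genes moved easily. When all low genes were tested, adhesion adaptors had 5 higher and 1 lower, recycling 3 higher, membrane partners 4 higher and hemidesmosomes 1 lower. With voom, other subunits had 1 lower, activators 5 lower, adaptors 6 lower and hemidesmosomes 2 higher. With the block, adaptors had 5 lower and hemidesmosomes 1 higher; at 5 FPKM hemidesmosomes had 1 higher and 1 lower. With single libraries left out, the ranges were 0 to 1 lower for other subunits, 5 to 9 higher and 1 to 4 lower for adaptors, 3 to 5 higher for recycling, 4 to 5 higher for membrane partners, and 0 to 1 higher and 1 to 3 lower for hemidesmosomes. The ITGAX log2 difference turned to 0.005564 on the TPM scale and ranged from -0.0746 to 0.0424 with single libraries left out. Depth limits ITGB8, with at most 6 recovered reads in a library.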
